A study of Mus musculus with 6 samples.

Results

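The genes described here build, fold, check and ship proteins of the endoplasmic reticulum (ER) in the mouse pre-osteoblast line 2T3. They were taken by name from the array's annotation: the symbol prefixes Pdia, Sec61, Sec62, Sec63, Sec22, Sec23, Sec24, Spcs, Ssr, Derl, Edem and Cop, the signal recognition particle genes Srp9 to Srp72 with Srpr, and 15 named genes of ER folding and stress. This gave 55 probes for 54 genes, 1 probe a gene and the brighter one where there were several, of 8588 named genes that could be tested. Of the 15 named genes, Atf6 and Creld2 had no probe of their own in the annotation and were not analysed here. The prefix Cop also caught 7 subunits of the COP9 signalosome (Cops genes), which act on ubiquitin ligases and not in the ER, and counts are given with and without them.

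The study set 3 samples under simulated microgravity against 3 static samples, with total RNA from each on 1 array. The microgravity samples were rotated on a Random Positioning Machine, a device that keeps changing a culture's orientation to gravity, and the static samples stayed still as controls. Both groups were 2T3 cells in OptiCells, closed cassettes with gas-permeable walls, and the labels give no further treatment, genotype or exposure length. The labels do not say that samples of a group were separate cultures, so the p-values reflect the spread between these 6 samples alone, and that spread may be technical.

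Proteins bound for secretion are met on the ribosome by the signal recognition particle, threaded through the Sec61 channel, trimmed by the signal peptidase, and folded by chaperones, lectins and disulfide isomerases. COPII coats carry folded cargo towards the Golgi, COPI coats bring escaped ER proteins back, and failed proteins are pulled out and degraded. When unfolded proteins build up, the sensors Ern1, Atf6 and Eif2ak3 start the unfolded protein response, which raises chaperones and slows translation; osteoblasts lean on this machinery because they secrete large amounts of collagen.

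None of the 54 genes passed the test (0 of 54; limma, Benjamini-Hochberg adjusted p under 0.05 over all 10146 probes), where 28 probes passed over the whole array (0.276%, 0.0887% higher and 0.187% lower in microgravity), or 24 of 8588 named genes (0.279%). The lowest adjusted p was 0.0737, for Ero1a, the oxidase that drives disulfide formation, whose ratio of microgravity over static was 2.33. At an unadjusted p under 0.05 there were 10 of the 54 genes (18.5%), against 986 of 8588 named genes (11.5%). The 6 with the higher values in microgravity were Ero1a, Ppp1r15a, Hyou1, Hspa5, Ern1 and Cops3, a share to set beside 5.79% of named genes in that direction. The 4 with the lower values were Pdia5, Copz2, Derl2 and Calr, beside 5.69%. That split depended on the scaling, with 5 higher and 6 lower under quantile and 4 higher and 8 lower under cyclic loess normalization. The share at that level also depended on the fit and on which probes were kept. With the dimmest 25% of probes left out, all 54 genes stayed, and it was 14.8%, against 13.7% of named genes. It was also 14.8% when the fit left out no probes but had no intensity trend, against 11.8%. With the dimmest 50% left out, 50 of the genes stayed, and it was 12%, against 15.8%, so the excess was not kept in that fit. All values of one group lay apart from all values of the other in 15 of the 54 genes (27.8%), 9 above and 6 below static (of these, Cops4 had only 2 values a group), against 16.6% of named genes (8.51% above and 8.07% below). These shares are not like for like. Values were floored at 0.1 of the array median, and a gene at the floor in both groups cannot have its groups apart. That floor held 0 of the 54 genes on any array, but 6.44% to 19.8% of all values on an array. As a whole the genes were centred near the rest of the array: 29 had higher and 25 lower mean log2 values in microgravity, with a median log2 change of 0.04, beside 0.05 over all named genes. The direction of so small a shift is not fixed, since 25 were higher under either of those normalizations, with medians of -0.014 and -0.030. Without the COP9 subunits the median was -0.01 over 47 genes, of which 9 were at an unadjusted p under 0.05 (19.1%) and 13 had groups apart (27.7%).

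All levels below are intensities relative to the median of their array (in array medians), listed for replicates 1, 2 and 3. A change is the mean log2 value in microgravity minus that in static, so a positive change means higher in microgravity, and counts of higher and lower genes go by this change. Levels of different genes come from different probes and are not set against each other. With 3 arrays a group the standard error of the log2 change had a median of 0.20 over the 54 genes (0.13 to 0.78), and in 31 of them the spread within groups was wider than the change.

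**Figure D1:**
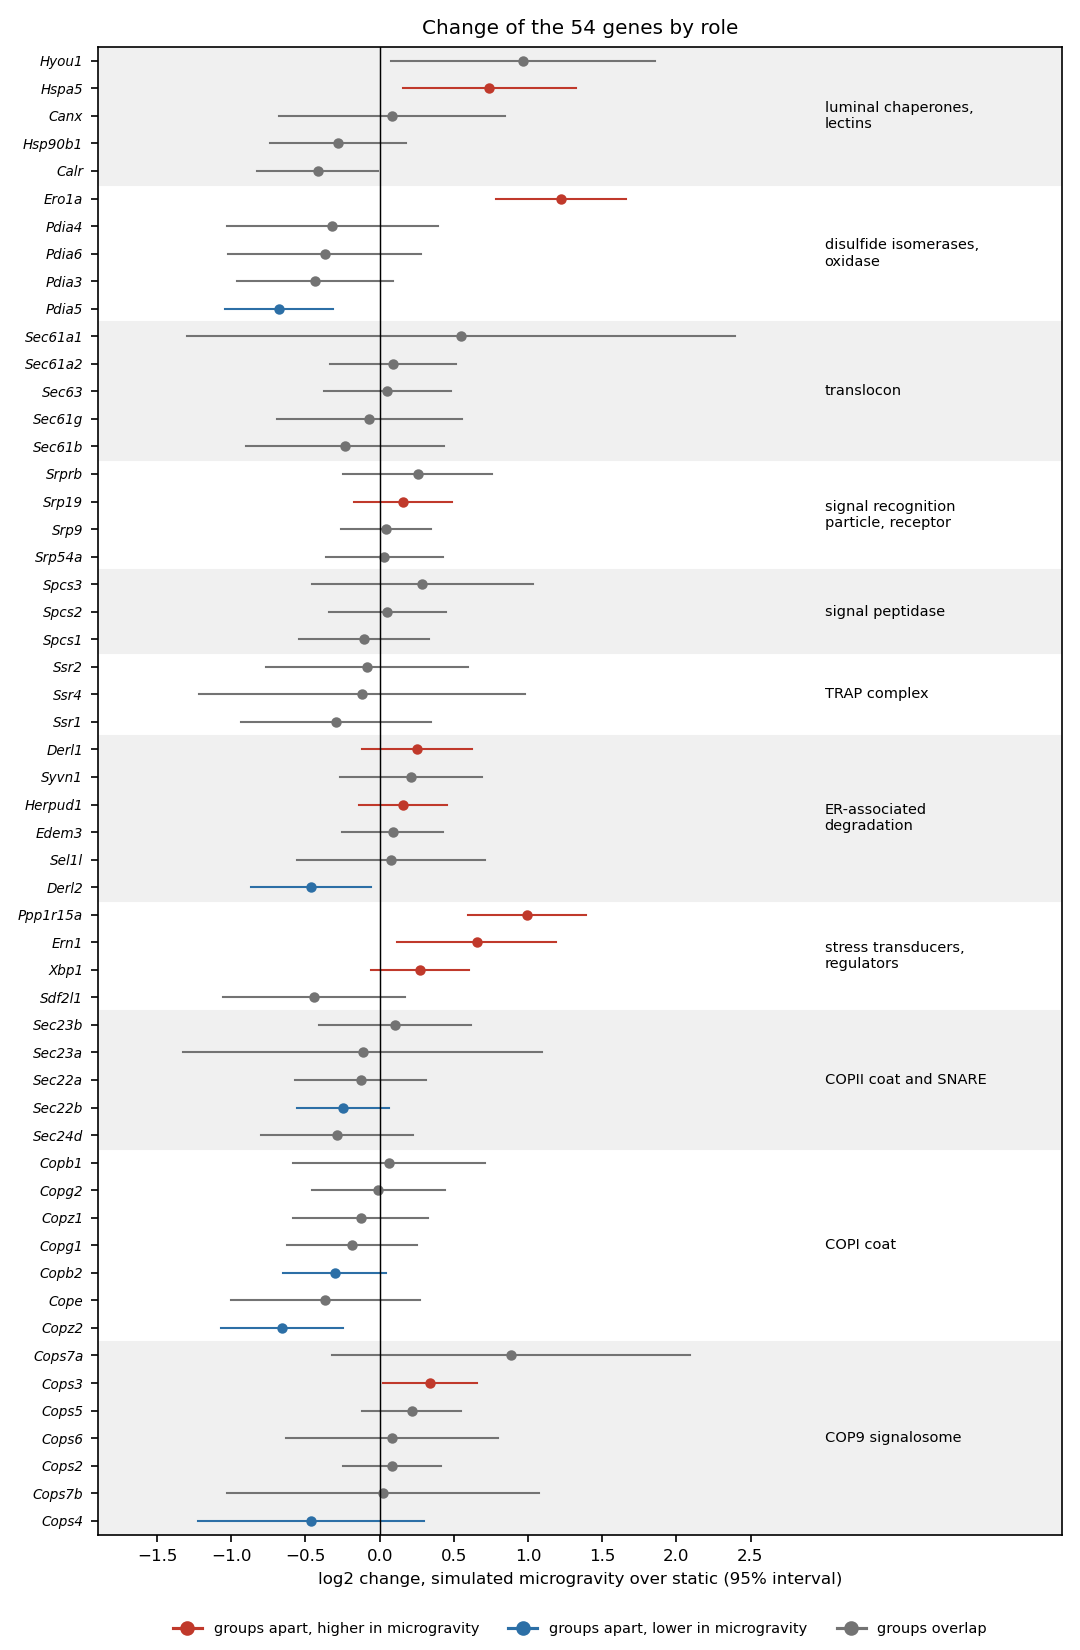
Log2 change (microgravity over static) of all 54 genes, grouped by role, each with its 95% interval from the limma fit. Ero1a stands farthest to the right at 1.22 and Pdia5 farthest to the left at -0.68, and most intervals cross 0; coloured genes are those whose groups lay apart.

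The sequences shown first are those that can be tied to stress control of these genes. The ER stress element is CCAAT, then 9 bases, then CCACG, and is bound by the cleaved form of ATF6 together with NF-Y. It was searched on both strands of RefSeq promoter windows (GRCm38.p6, 250 bases before to 50 after the annotated start), which were found for 47 of the 54 genes. It stood in 6 of the 47 (12.8%), against 11 of 6874 genes on the array with a window (0.16%). The array genes, here and for the other elements, include the 47. Most carriers are among the named genes of ER folding and stress, so the contrast is not independent of how the genes were chosen. The windows are printed around the element, with 12 bases on either side, on the strand of the gene and with the element in capitals.
Hspa5 (chr2:34772013-34772055, plus strand): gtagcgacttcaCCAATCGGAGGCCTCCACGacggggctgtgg
Syvn1 (chr19:6046520-6046562, plus strand): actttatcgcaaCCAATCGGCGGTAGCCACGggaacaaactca
Canx (chr11:50325788-50325830, minus strand): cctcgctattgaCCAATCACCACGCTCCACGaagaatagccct
Hsp90b1, distal (chr10:86705626-86705668, minus strand): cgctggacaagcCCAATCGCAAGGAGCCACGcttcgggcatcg
Hsp90b1, proximal (chr10:86705521-86705563, minus strand): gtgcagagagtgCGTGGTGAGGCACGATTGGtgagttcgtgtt
Pdia6 (chr12:17266479-17266521, plus strand): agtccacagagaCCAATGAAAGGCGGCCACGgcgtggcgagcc
Calr (chr8:84847063-84847105, minus strand): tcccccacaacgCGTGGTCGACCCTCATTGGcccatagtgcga

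The proximal element of Hsp90b1 and that of Calr are read on the opposite strand, so they appear reversed. The first base of the element lay 44 bases before the annotated start in Syvn1, 65 in Hspa5, 98 in Pdia6, 145 in Canx and 162 in Calr, and 107 and 212 in Hsp90b1. The genes that share the element did not share a direction: 3 were higher and 3 lower in microgravity. Their log2 changes were 0.74 for Hspa5, 0.21 for Syvn1 and 0.08 for Canx, against -0.28 for Hsp90b1, -0.37 for Pdia6 and -0.42 for Calr.

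Shorter or related elements stood in 5 other genes. The UPR element TGACGTGG, a site for XBP1 and ATF6, was in 4 of 47 windows (8.51%), against 1.21% of array genes, and the carriers were coat genes of ER traffic. The ER stress element II, ATTGG, then 1 base, then CCACG, was in Herpud1 alone (2.13%), against 0.102% of array genes. No elements overlapped, and the composite ATF4 site TGATGNAAT was in 0 of 47 windows, against 0.596% of array genes. The letters in capitals mark the element, which is read on the opposite strand in Copb1 and Copb2 and so appears as CCACGTCA.
Herpud1 (chr8:94386365-94386399, plus strand): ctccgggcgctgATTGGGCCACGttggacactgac
Sec24d (chr3:123267458-123267489, plus strand): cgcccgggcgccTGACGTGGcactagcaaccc
Copb1 (chr7:114254689-114254720, minus strand): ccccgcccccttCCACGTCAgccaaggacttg
Copb2 (chr9:98563712-98563743, plus strand): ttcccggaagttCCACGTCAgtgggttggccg

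The fourth carrier of the UPR element was Sec23a. Of these 4 genes, Copb1 had a log2 change of 0.06 and the other 3 had negative ones, -0.11 for Sec23a, -0.29 for Sec24d and -0.30 for Copb2. Sec23a had nearly equal linear means, 0.461 in microgravity and 0.460 in static. Ero1a, Ppp1r15a, Pdia5 and Copz2, the 4 genes with the smallest p, carried none of the elements, like 36 of the 47 genes with a window. Those 36 divided evenly, 18 higher and 18 lower. Only exact matches to the given letters were counted, so a site with a changed letter would be missed. The matches are descriptions of letters in a window, and no binding was measured.

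**Figure D2:**
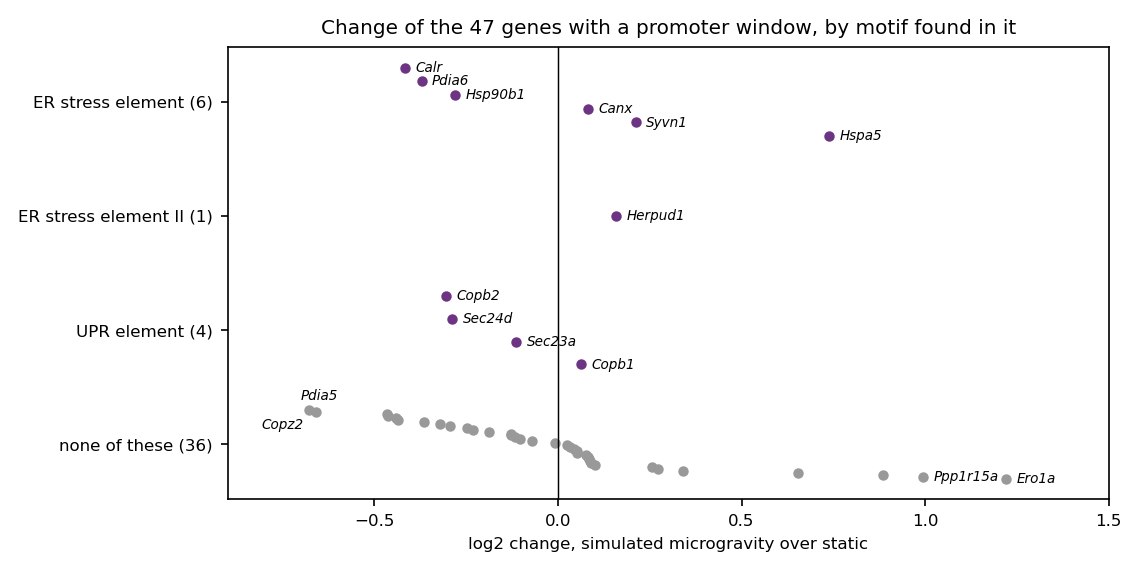
Log2 change (microgravity over static) of the 47 genes with a RefSeq promoter window, by the element found in it, 1 point a gene. Carriers of the ER stress element lie on both sides of 0, from -0.42 (Calr) to 0.74 (Hspa5), and Ero1a and Ppp1r15a lie among the 36 genes with none.

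The stress transducers and regulators had the highest median log2 change of the 11 role groups, 0.46 over 4 genes, and 3 of the 4 genes had every microgravity value above static, beside 8.51% of all named genes. Ppp1r15a (GADD34) is the phosphatase subunit that reverses the translation block set by Eif2ak3. It measured 6.44, 7.76 and 8.84 array medians in microgravity, against 3.46, 4.10 and 3.94 in static. Every microgravity value lay above every static value. The means were 7.68 ± 1.20 and 3.83 ± 0.334 (SD, n = 3 each), a ratio of 1.99 (log2 change 0.99, SE 0.17, 95% interval 0.60 to 1.39, limma adjusted p = 0.0915).

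Ern1 (IRE1), the sensor that splices Xbp1 mRNA, was a dim probe. It read 0.464, 0.552 and 0.447 array medians in microgravity, against 0.260, 0.360 and 0.314 in static, so the groups did not overlap. The ratio was 1.57 (log2 change 0.65, SE 0.23, limma adjusted p = 0.347). Xbp1, the transcription factor made by that splicing, measured 5.77, 5.72 and 6.05 in microgravity and 5.09, 5.22 and 4.28 in static. The groups were apart, but the ratio was only 1.21 (log2 change 0.27, SE 0.14, limma adjusted p = 0.596), and the array does not tell spliced from unspliced Xbp1.

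Sdf2l1, an ER-stress-induced partner of ER chaperones, did not share this pattern. It measured 8.31, 5.15 and 9.43 in microgravity, against 12.2, 8.67 and 9.59 in static. The groups overlapped, with the lowest value on microgravity 2, and the ratio was 0.736 (log2 change -0.44, SE 0.26, limma adjusted p = 0.684).

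**Figure D3:**
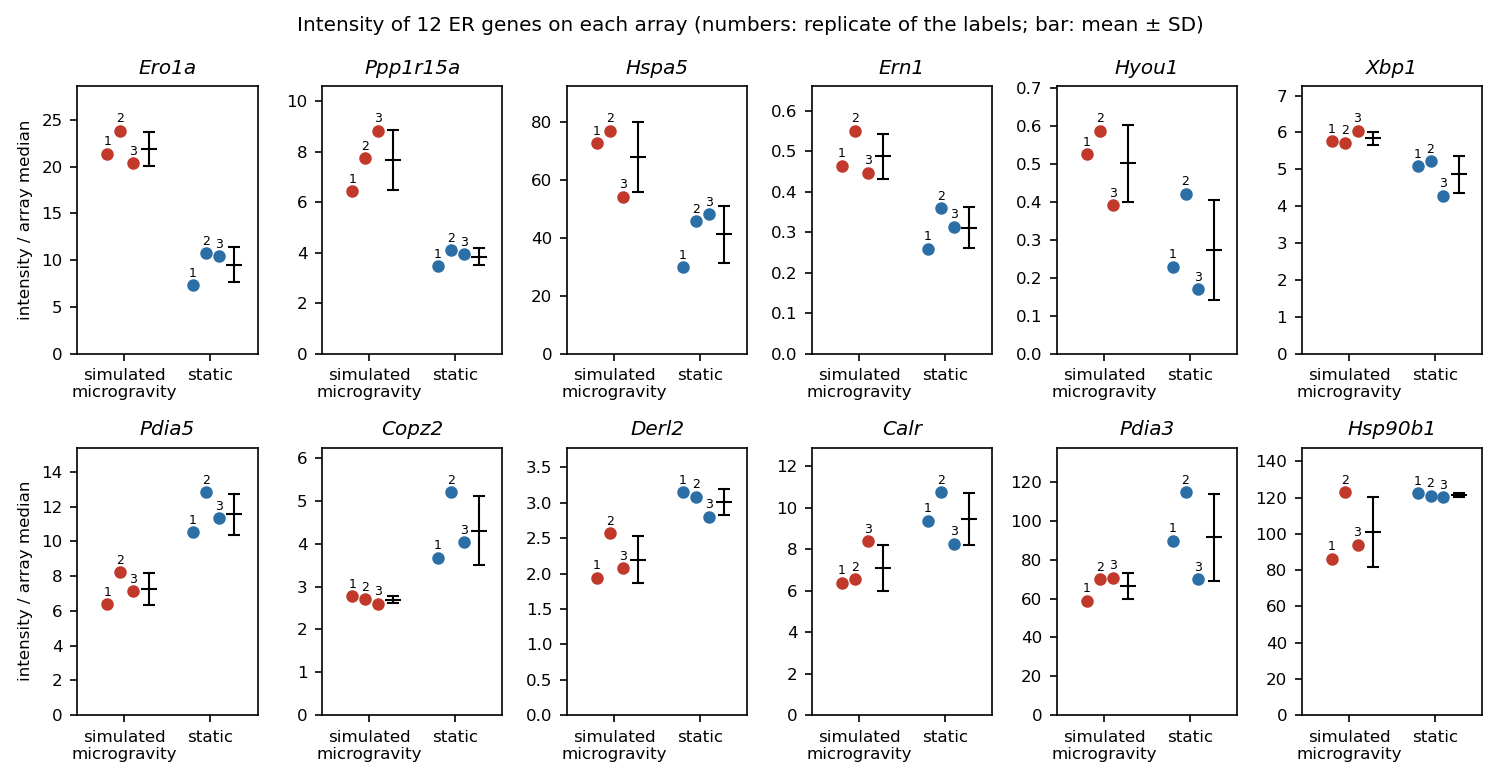
Intensity relative to the array median (linear axis from 0) for 12 of the genes, with microgravity on the left and static on the right of each panel; numbers are replicates and bars are means with SD. The upper panels hold genes with higher means in microgravity, led by Ero1a at 21.9 against 9.51, and the lower panels genes with lower means, such as Pdia5 at 7.24 against 11.6.

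Among luminal chaperones and lectins, 3 of 5 genes had higher means in microgravity, and their median log2 change was 0.08. Hspa5 (BiP) is the Hsp70 chaperone that binds unfolded chains and holds the stress sensors inactive. It measured 72.8, 77.1 and 54.2 array medians in microgravity, against 29.8, 45.7 and 48.2 in static. The groups did not overlap, though microgravity 3 and static 3 were close. The ratio was 1.67 (log2 change 0.74, SE 0.25, 95% interval 0.15 to 1.32, limma adjusted p = 0.322). Its unadjusted limma p was 0.0205, against 0.0720 with quantile and 0.0618 with cyclic loess normalization.

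Hyou1, the large Hsp70-like chaperone that exchanges the nucleotide of Hspa5, read 0.526, 0.588 and 0.391 in microgravity, against 0.229, 0.422 and 0.169 in static. Static 2 lay above microgravity 3, so the groups overlapped. The ratio was 1.95 with a wide error (log2 change 0.96, SE 0.37, limma adjusted p = 0.414).

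Other chaperones of this group had no such ratio. Hsp90b1 (GRP94), the ER form of Hsp90, measured 86.3, 123 and 94.1 in microgravity, against 123, 121 and 120 in static. Microgravity 2 matched the tight static values while the other microgravity arrays lay below, and the ratio was 0.824 (log2 change -0.28, SE 0.19, limma adjusted p = 0.785). Hspa5 and Hsp90b1, classical joint targets of ER stress, therefore had ratios on opposite sides of 1 in these arrays, a difference that was not itself tested.

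The lectins calreticulin (Calr) and calnexin (Canx) hold glycoproteins until they fold. Calr measured 6.38, 6.57 and 8.37 in microgravity, against 9.37, 10.8 and 8.27 in static. The groups overlapped at microgravity 3 and static 3, and the ratio was 0.749 (log2 change -0.42, SE 0.17, unadjusted p = 0.0464, limma adjusted p = 0.449). Canx measured 10.1, 11.7 and 6.01 in microgravity, against 5.98, 9.32 and 10.8 in static. Its groups spanned nearly the same range, with a log2 change of 0.08 (SE 0.32), and its dimmer second probe gave 0.19.

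The oxidase and the disulfide isomerases, which act in 1 pathway, had log2 changes of opposite sign, a difference that was not itself tested. Ero1a passes electrons from the isomerases to oxygen. It measured 21.4, 23.9 and 20.4 array medians in microgravity, against 7.34, 10.8 and 10.4 in static. The lowest microgravity value was well above the highest static one, and Ero1a ranked 42 of 8588 named genes by p. The means were 21.9 ± 1.79 and 9.51 ± 1.88 (SD, n = 3 each), a ratio of 2.33 (log2 change 1.22, SE 0.18, 95% interval 0.78 to 1.66, limma adjusted p = 0.0737). It was the only one of the 54 genes with a ratio above 2, and it passed the test in 5 of 19 alternative settings (adjusted p = 0.0316 to 0.0415).

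All 4 Pdia isomerases had lower means in microgravity. Pdia5, an isomerase described in human cell lines as an activator of ATF6, measured 6.39, 8.22 and 7.12 in microgravity, against 10.5, 12.8 and 11.3 in static. The groups did not overlap, and the ratio was 0.625 (log2 change -0.68, SE 0.15, 95% interval -1.05 to -0.31, limma adjusted p = 0.155). Pdia3 (ERp57), which serves glycoproteins held by Calr and Canx, measured 58.9, 70.1 and 70.9 in microgravity, against 90.0, 115 and 70.2 in static. Static 3 fell inside the microgravity range, and the ratio was 0.739 (limma adjusted p = 0.590). Pdia4 and Pdia6 had log2 changes of -0.32 and -0.37 with overlapping groups (limma adjusted p = 0.857 and 0.823).

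On the entry route into the ER, from the signal recognition particle to the TRAP complex, the groups overlapped in each gene but Srp19. The 5 translocon genes had a median log2 change of 0.05. Sec61b, the beta subunit of the channel, measured 7.92, 9.85 and 14.3 in microgravity, against 15.5, 12.8 and 9.14 in static, over much the same range. Sec61g, the gamma subunit, measured 24.6, 16.5 and 31.2 in microgravity, against 29.9, 21.5 and 22.8 in static (log2 change -0.07). Sec61a1, the channel-forming subunit, was lowest on the arrays numbered 2 in both groups, at 1.83, 0.559 and 1.37 in microgravity and 1.42, 0.240 and 1.32 in static. It had the widest spread within groups of the 54 genes, a log2 SD of 1.21, and its log2 change of 0.55 had an SE of 0.78. Sec63, a J-domain partner of the channel, and Sec61a2, which lacked a value on microgravity 2, had log2 changes of 0.05 and 0.09.

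The signal recognition particle and its receptor (4 genes) had a median of 0.10, with 4 of 4 means higher in microgravity. Srp19, an assembly factor of the particle, measured 15.8, 19.0 and 16.0 in microgravity and 14.2, 15.6 and 15.6 in static. Its groups were apart by a small margin, with a log2 change of 0.16. The receptor subunit Srprb had a log2 change of 0.26, at 3.45, 2.59 and 3.92 in microgravity and 3.25, 2.58 and 2.45 in static. Srp9 measured 18.9, 17.9 and 20.9 in microgravity and 19.2, 18.001 and 18.7 in static, and Srp54a, the subunit that reads the signal sequence, 17.0, 17.9 and 16.5 in microgravity and 20.2, 16.5 and 14.1 in static. Both lay within their spread, at 0.04 and 0.03.

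The signal peptidase, which cuts the signal sequence off, had log2 changes of 0.29 for Spcs3, 0.05 for Spcs2 and -0.10 for Spcs1. Spcs3 measured 6.91, 7.47 and 3.49 in microgravity and 3.79, 5.22 and 5.01 in static, while Spcs1 measured 35.3, 47.5 and 45.3 in microgravity and 51.3, 46.6 and 39.5 in static. Both overlapped.

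The TRAP complex (Ssr genes), which sits beside the channel, had 3 of 3 means lower in microgravity and a median of -0.12, far inside its spread. Ssr4 measured 16.9, 6.52 and 16.4 in microgravity, against 18.03, 7.95 and 16.2 in static. Its low values were those of replicate 2 in both groups. Ssr2 was likewise lowest there, at 14.7, 10.6 and 17.8 in microgravity and 20.2, 10.7 and 15.3 in static. Ssr1 did the reverse, at 19.1, 28.7 and 14.4 in microgravity and 20.5, 27.8 and 25.6 in static, and had a log2 change of -0.29.

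**Figure D4:**
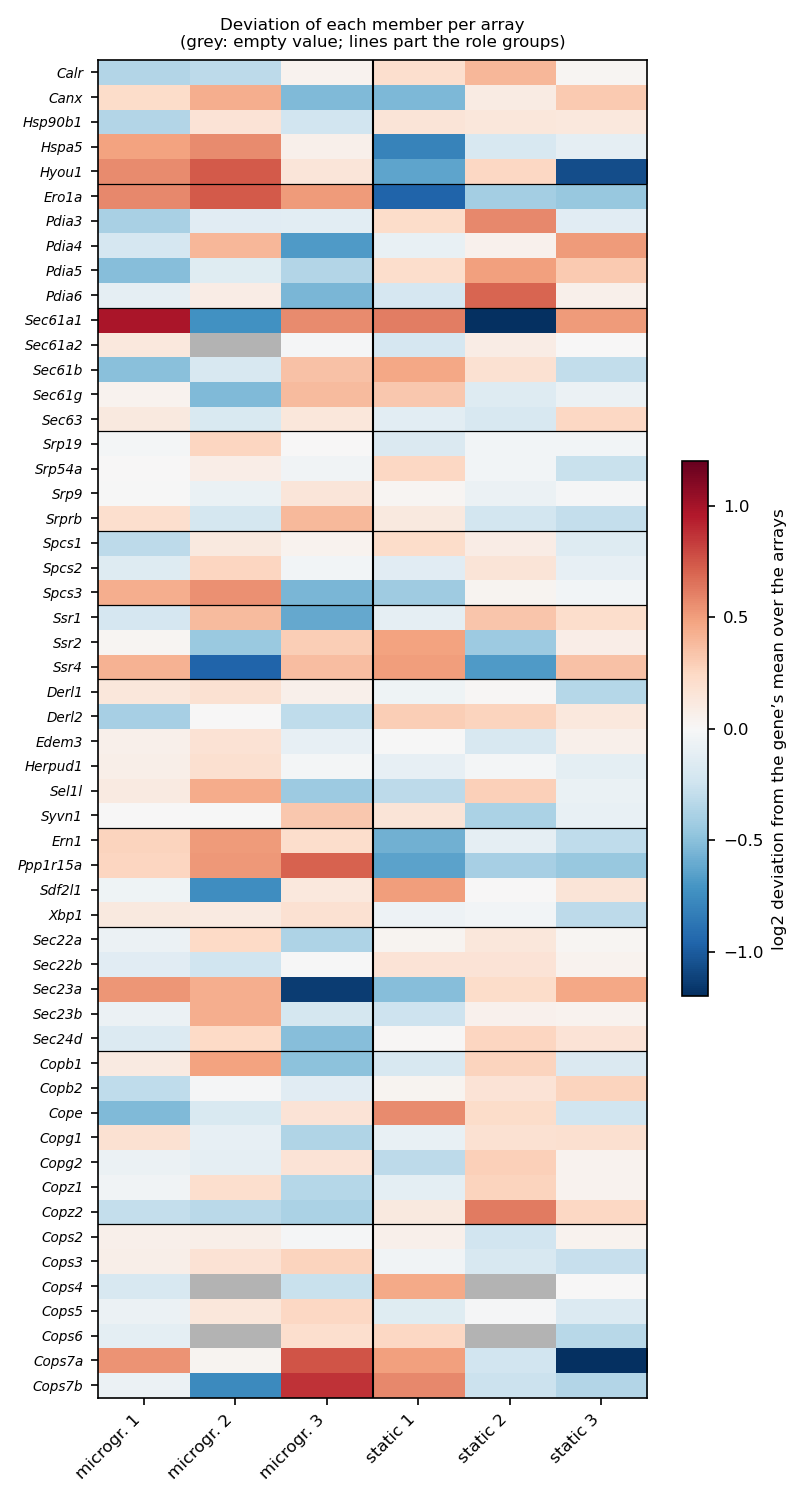
Log2 deviation of each of the 54 genes from its mean over the 6 arrays, microgravity 1 to 3 on the left and static 1 to 3 on the right, grouped by role. The colour scale is clipped at its ends. Genes such as Ero1a and Ppp1r15a separate the groups, while Sec61a1 and Ssr4 are low on both arrays numbered 2.

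ER-associated degradation had 5 of 6 means higher in microgravity and a median log2 change of 0.12. The exception was Derl2, a derlin that helps to pull failed proteins out of the ER. It measured 1.94, 2.57 and 2.08 array medians in microgravity, against 3.15, 3.09 and 2.80 in static. The groups did not overlap, and the ratio was 0.724 (log2 change -0.47, SE 0.17, limma adjusted p = 0.380). Its relative Derl1 measured 3.91, 4.03 and 3.70 in microgravity, against 3.43, 3.60 and 2.80 in static, with the groups apart in the other direction (ratio 1.19, limma adjusted p = 0.715). These derlins thus lay on opposite sides of static, a difference that was not itself tested.

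Herpud1, a scaffold of the degradation complex, measured 11.5, 12.5 and 10.8 in microgravity, against 10.3, 10.8 and 10.2 in static. Its groups touched at 10.8 without overlapping before rounding, and the ratio was 1.12 (log2 change 0.16, SE 0.13, limma adjusted p = 0.848). The ubiquitin ligase Syvn1 (HRD1) measured 2.25, 2.23 and 2.81 in microgravity and 2.497, 1.72 and 2.10 in static. Its partner Sel1l measured 5.995, 7.55 and 4.09 in microgravity and 4.46, 6.76 and 5.26 in static. Both overlapped, with log2 changes of 0.21 and 0.08, and that of the mannosidase-like Edem3 was 0.09.

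The coats of ER traffic had mostly negative log2 changes, 4 of 5 for COPII with its SNAREs (median -0.13, with Sec23a lower only on the log scale) and 6 of 7 for COPI (median -0.19). Copz2, a zeta subunit of COPI, measured 2.78, 2.71 and 2.61 in microgravity, against 3.68, 5.21 and 4.03 in static. The microgravity values were tight and all lay below static. The means were 2.70 ± 0.0868 and 4.31 ± 0.801 (SD, n = 3 each), a ratio of 0.633 (log2 change -0.66, SE 0.17, 95% interval -1.07 to -0.25, limma adjusted p = 0.204). The other zeta subunit, Copz1, had a log2 change of -0.13 with overlapping groups.

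Copb2 (beta prime subunit) measured 19.4, 23.9 and 21.8 in microgravity, against 24.6, 26.8 and 28.9 in static. The groups were narrowly apart (ratio 0.810, limma adjusted p = 0.552). Cope (epsilon) measured 28.0, 35.7 and 45.3 in microgravity and 59.8, 47.2 and 34.3 in static, with overlap. Copb1 (beta) was the single COPI gene with a higher mean in microgravity, at 9.98, 12.9 and 6.55 against 8.07, 11.1 and 8.21 in static (log2 change 0.06), and Copg1 and Copg2 (gamma) were at -0.19 and -0.01.

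On the outward route, the SNARE Sec22b measured 14.5, 13.5 and 15.9 in microgravity, against 17.9, 17.8 and 16.4 in static. Its groups were apart, at a ratio of 0.842 (limma adjusted p = 0.613). Sec24d, a cargo-binding COPII subunit whose loss in fish and people disturbs skeletal collagen secretion, measured 2.95, 3.91 and 2.33 in microgravity and 3.34, 3.97 and 3.70 in static, with overlap. Sec23a, its COPII partner with a similar skeletal role, was dim and spread, at 0.615, 0.575 and 0.193 in microgravity and 0.298, 0.496 and 0.587 in static, with its lowest value on microgravity 3. Sec23b measured 2.60, 3.70 and 2.36 in microgravity and 2.31, 2.84 and 2.81 in static (log2 change 0.10), and Sec22a had a log2 change of -0.13.

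The 7 COP9 subunits had a median log2 change of 0.08, with 6 higher and 1 lower. Cops3 measured 9.23, 9.88 and 10.5 in microgravity, against 8.49, 7.70 and 7.25 in static. Its groups were apart, at a ratio of 1.27 (log2 change 0.34, SE 0.13, limma adjusted p = 0.416). Cops7a had a larger but less certain log2 change of 0.88 (SE 0.51), at 10.3, 7.19 and 11.9 in microgravity and 9.89, 6.02 and 2.35 in static, where static 3 stood low. Cops4 was empty on both arrays numbered 2, and its remaining values were 0.958 and 0.906 in microgravity, against 1.503 and 1.10 in static. Cops6 lacked the same arrays, and Cops2, Cops5, Cops6 and Cops7b had log2 changes of 0.02 to 0.21 with overlapping groups. Cops2, the brightest of the COP9 genes, measured 21.3, 21.4 and 20.2 in microgravity and 21.2, 17.4 and 21.0 in static.

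Genes of the same pathways outside the name rule were read from 6 lists, and 0 of their genes passed the test. The lists were chosen with earlier results of these data known, so their shares may not be independent of these data. In the list of unfolded protein response sensors and the PERK-ATF4 branch, 24 of 33 genes were measured, 14 higher and 10 lower in microgravity, with a median log2 change of 0.08. At an unadjusted p under 0.05 were 7 higher and 1 lower (33.3%, against 11.5% of named genes). Atf3, a stress-induced transcription factor, measured 3.51, 2.75 and 4.48 in microgravity, against 1.80, 1.87 and 1.81 in static (ratio 1.92, limma adjusted p = 0.143). The groups were apart, as were those of Gadd45a, a growth-arrest gene, with means of 51.3 ± 7.11 in microgravity and 21.3 ± 8.83 in static (ratio 2.54, limma adjusted p = 0.173). Wfs1, an ER membrane protein, had a ratio of 1.499 (limma adjusted p = 0.249), and Casp12, an ER-associated caspase, one of 0.612 (limma adjusted p = 0.132). The remaining genes of this list at an unadjusted p under 0.05 were Ddit4, Vldlr, Chac1 and Atf6b, all higher in microgravity. Their ratios were 1.49, 1.64, 1.45 and 1.55 (limma adjusted p = 0.284 to 0.453).

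At the core of that branch, Atf4 and Ddit3 had overlapping groups. Atf4, its central transcription factor, averaged 184 ± 36.5 in microgravity and 167 ± 19.5 in static (limma adjusted p = 0.925). Ddit3 (CHOP) averaged 53.9 ± 8.10 in microgravity and 49.1 ± 7.69 in static (limma adjusted p = 0.898). The sensor Eif2ak3 had a log2 change of -0.32, with every microgravity value below static (limma adjusted p = 0.653). These 3 genes were chosen after their values were seen.

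ER-resident folding helpers outside the rule (37 listed, 26 measured) had a median log2 change of -0.15. Of these, 17 had negative log2 changes, and 5 lower and 1 higher were at an unadjusted p under 0.05 (23.1%, against 11.5% of named genes). Rcn3, a calcium-binding protein of the ER lumen, averaged 7.47 ± 0.778 in microgravity and 16.0 ± 1.98 in static (ratio 0.468, limma adjusted p = 0.0607). The prolyl isomerases Fkbp7 and Fkbp9 had ratios of 0.480 and 0.584 and the peroxiredoxin Prdx4 one of 0.675, all with groups apart (limma adjusted p = 0.164 to 0.293). The 9 measured procollagen helpers had 7 lower means, led by the collagen prolyl 3-hydroxylases P3h3 (ratio 0.660, limma adjusted p = 0.133) and P3h1 (0.674). P4ha2 had a log2 change of -0.26, and Serpinh1 (Hsp47), the collagen chaperone, one of 0.23.

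**Figure D5:**
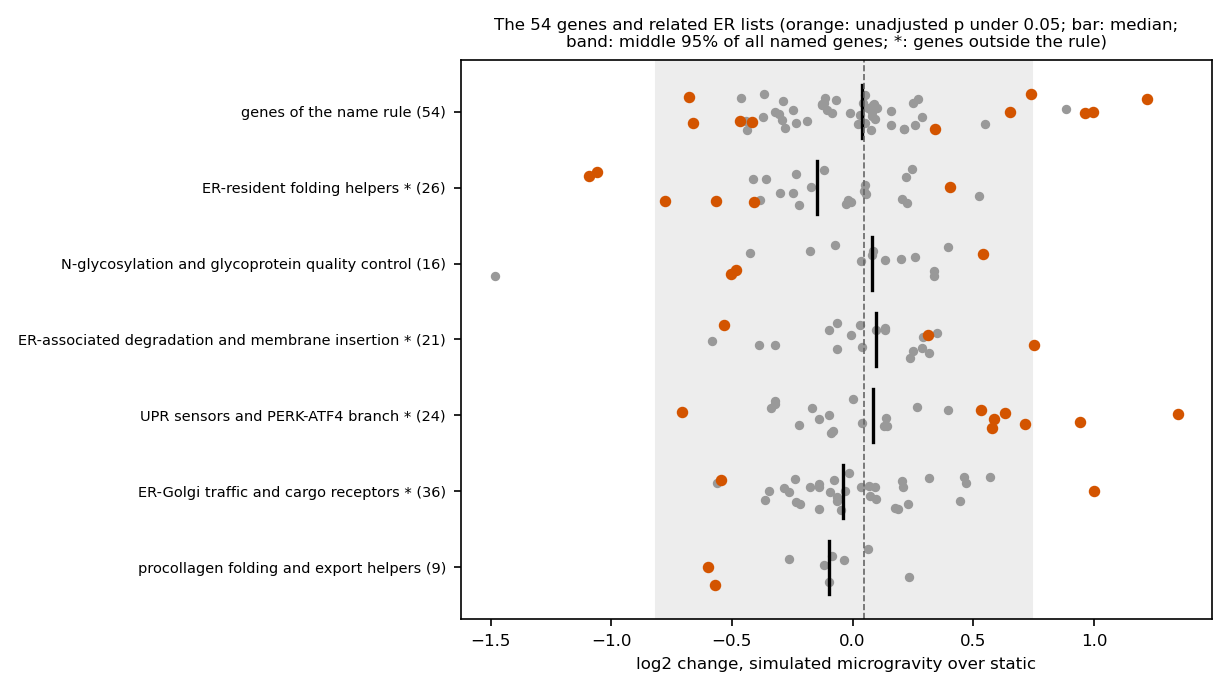
Log2 change (microgravity over static) of the 54 genes (top) and of each measured gene in the 6 lists outside the name rule, 1 point a gene, orange at an unadjusted p under 0.05, with each median as a bar; the shaded band holds the middle 95% of 8588 named genes (-0.81 to 0.74). Of the 6 lists, Rcn3, Fkbp7 and Man1a2 (-1.48, SE 1.01, not at that p) lie below the band and Gadd45a, Atf3, Tmed5 and, just past its edge, Ube2g2 above it; Ero1a, Ppp1r15a, Hyou1 and Cops7a of the top row also lie above it.

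Values that move with the groups stand beside these results, and their part in them was not tested. The osteoblast markers differed: 8 of the 9 measured (13 listed) were lower in microgravity, Pth1r, Alpl and Omd passed the test, and the 9 summed to 73.2 to 119 array medians in microgravity, against 211 to 275 in static. That sum was carried by Omd, Postn, Col1a1 and Col1a2. Of the lower markers, Ibsp had a log2 change of only -0.05, and Dmp1 was near the floor. Fewer cells of a type and less RNA per cell cannot be told apart in bulk samples. Markers of 5 other cell types had 0 calls, and their sums overlapped between groups except for adipocytes. The sum of 7 skeletal muscle markers (8 listed) was 0.853 to 1.15 in microgravity and 0.907 to 1.06 in static, and that of 8 of 8 for endothelium and epithelium 0.703 to 1.18 in microgravity and 0.712 to 0.904 in static. For chondrocytes (7 of 8) it was 2.89 to 3.20 in microgravity and 3.07 to 3.71 in static. The adipocyte sum (4 of 8) was 35.4 to 40.9 in microgravity and 42.5 to 50.1 in static, of which Fabp4 made 26.5 in microgravity and 26.1 in static on average and Lpl 9.89 in microgravity and 16.9 in static, with Adipoq near the floor. That of macrophages, osteoclasts and blood (6 of 9) was 10.9 to 18.1 in microgravity and 14.3 to 18.8 in static, carried by Cd14, with Ptprc near the floor. Tnnt3 and Krt18 were at the floor on every array.

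The arrays numbered 2 stood apart from the rest in both groups, with 6.44% (microgravity) and 9.165% (static) of values at the floor of 0.1 array medians, against 17.1% to 19.8% on the other arrays. Without both of them, 7 of the 54 genes were at an unadjusted p under 0.05 (12.963%, against 9.85% of named genes), and the log2 changes were 1.26 for Ero1a, 1.03 for Ppp1r15a, 0.73 for Hspa5, -0.70 for Pdia5 and -0.52 for Copz2. Microgravity 3 and static 1 also deviated from their groups together (correlation across probes 0.662). Without those arrays the same genes had log2 changes of 1.09, 0.81, 0.68, -0.74 and -0.74. Again 7 genes were at that level, of 51 that could be fitted (13.7%, against 7.75% of named genes). Of the 10 genes at an unadjusted p under 0.05, Ero1a, Ppp1r15a, Pdia5 and Copz2 stayed there with any 1 of the 6 arrays left out, and each of the other 6 lost that level without at least 1 array. The count of genes at that level was 4 without microgravity 1 (7.84%, against 8.46% of named genes), its lowest over the 6 arrays. Without static 1 it was 6 (11.5%, against 7.97%).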

How the data were processed

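RNA of 6 samples was measured on 1 array each. The values deposited by the authors are linear intensities of 10500 probes. Their scaling, the array maker, the scanner and the exposure length: not given in the sources used here. Array medians lay between 0.908 and 0.927, so the arrays were scaled only by dividing each by its median. The ratios were floored at 0.1 and put on the log2 scale; the floor understates changes of dim probes. Probes at the floor on every array or with under 2 values in either group (354) were dropped. Groups were compared with limma 3.58.1 (R 4.3.3; lmFit, eBayes with intensity trend, 2-sided, Benjamini-Hochberg over 10146 probes), tested on simulated data. The 3 arrays per group limit precision. Symbols came from GEO's platform annotation (8983 probes with 1 symbol).

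The genes and lists were chosen with earlier results of these data known. Values per array are given for the named stress genes, for genes at an unadjusted p under 0.05 or with groups apart, and for each role's extremes and brightest gene. Each list gives up to 4 genes with the smallest p, and some lists give further genes. Promoters are RefSeq windows (GRCm38.p6). Alternatives were 17 planned and 2 added after seeing the data.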

Additional observations from a re-analysis of the deposited data

How the results depend on the processing

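Of 39 genes followed through up to 19 alternatives, 28 kept the sign of their change in each that could be fitted for them (Cops4 in 14, Ern1 and Hyou1 in 18). Over the array, 28 probes passed the test, against 54 with quantile and 57 with cyclic loess normalization, 53 with the floor at 0.05, 59 without a floor, 59 and 54 with the dimmest 25% and 50% left out, and 115 with array weights. With a replicate block the count was 0, as with each array left out, or with either pair of arrays left out (the pairs were added after seeing the data). Same-numbered samples deviated together only for number 2 (correlations -0.206, 0.455 and -0.176), so the numbers were not taken as pairs. Across numbers, microgravity 3 deviated with static 1 (0.662) and microgravity 1 with static 3 (0.376). The other cross-number correlations were negative, and no block of that matching was fitted. Under the same-number block the limma adjusted p of Ero1a was 0.270. Of the ER genes, 0 passed in the reported fit and 1, Ero1a, passed with the floor at 0.05, no floor, the dimmest 25% or 50% left out, or array weights; the cause was not tested. Over the alternatives, 4 to 12 of the ER genes were at an unadjusted p under 0.05 (7.84% to 22.2%, against 7.75% to 15.8% of named genes).

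The median of all 54 genes was -0.014 with quantile, -0.030 with cyclic loess, -0.018 without both arrays numbered 2, and -0.019 to 0.025 with 1 array left out. That of the stress transducers was 0.27 with the dimmest 50% left out, which removed Ern1, and that of the unfolded protein response list 0.0027 with quantile normalization and 0.037 to 0.18 with 1 or 2 arrays left out. With 1 array left out the medians of COP9, ER-associated degradation and insertion, folding helpers and N-glycosylation ranged over 0.083 to 0.32, -0.028 to 0.14, -0.17 to -0.049 and -0.016 to 0.099.

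Signs turned in 11 genes with 1 or 2 arrays left out, with ranges of -0.17 to 0.37 (Canx), -0.16 to 0.33 (Copb1), -0.026 to 0.16 (Cops2), -0.091 to 0.23 (Sec23b), -0.29 to 1.05 (Sec61a1), -0.28 to 0.18 (Sec61g), -0.13 to 0.31 (Sel1l), -0.21 to 0.027 (Spcs1), -0.093 to 0.19 (Srp54a), -0.016 to 0.093 (Srp9) and -0.32 to 0.13 (Ssr2). Without both arrays numbered 2 they were -0.043 (Canx), -0.010 (Copb1), -0.026 (Cops2), -0.039 (Sec23b), 0.086 (Sec61g) and -0.0089 (Srp54a). Srp54a and Srp9 were at -0.011 and -0.0051 with quantile and -0.035 and -0.024 with cyclic loess, and Sec61g at 0.0011 with array weights. Nearness to the background limits dim probes such as Ern1, Hyou1 and Sec23a.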

Other observations

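The other 3 lists held 0 calls by limma. At an unadjusted p under 0.05 were 3 genes of N-glycosylation (18.75%), 3 of ER-associated degradation and membrane insertion (14.3%) and 2 of ER-Golgi traffic (5.56%), beside 11.5% of all named genes. In N-glycosylation, 10 of 16 measured genes were higher in microgravity, with a median log2 change of 0.08. Tusc3, an oligosaccharyltransferase subunit, averaged 14.9 ± 1.07 in microgravity and 21.1 ± 4.13 in static (ratio 0.715, limma adjusted p = 0.367). Dpagt1, which starts the lipid-linked sugar, averaged 0.826 ± 0.116 in microgravity and 0.565 ± 0.00624 in static (ratio 1.45, limma adjusted p = 0.419). Both had groups apart, in opposite directions, and the mannosidase Man1a had a ratio of 0.705, while Ddost, another subunit of the transferase, had one of 0.744 with overlap.

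In ER-associated degradation and membrane insertion outside the rule, 13 of 21 measured genes were higher in microgravity (median 0.10). Erlec1, a lectin that reads trimmed sugars on failed glycoproteins, had a ratio of 0.691. Serp1, a small protein that stabilises membrane proteins at the translocon under stress, averaged 14.5 ± 0.856 in microgravity and 11.6 ± 0.214 in static (ratio 1.24, limma adjusted p = 0.413). Ube2g2, a ubiquitin-conjugating enzyme with 2 values a group, had a ratio of 1.68, and Ufd1, a cofactor of the extraction ATPase, one of 1.22.

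In ER-Golgi traffic, 16 of 36 measured genes were higher in microgravity and 20 lower (median -0.04). Of 5 p24 cargo receptors measured, Tmed5 averaged 3.97 ± 1.01 in microgravity and 2.01 ± 0.594 in static (ratio 2.00, limma adjusted p = 0.271), while Tmed3 averaged 11.4 ± 2.04 in microgravity and 16.6 ± 2.87 in static (ratio 0.685, limma adjusted p = 0.377). The other Tmed genes, Tmed2, Tmed9 and Tmed10, had overlapping groups and log2 changes of -0.09, 0.20 and -0.01, and differences between receptors were not tested. Ergic1, a protein of the ER-Golgi intermediate compartment, had a ratio of 1.48, and Lman1, its cargo lectin, one of 0.787.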
